A study of Rattus norvegicus with 15 samples.

Results

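Total RNA of oligomeric amyloid-β-treated oligodendrocytes was compared with that of control oligodendrocytes in 6 of the 15 libraries of the series. These are the input libraries, sequenced without immunoprecipitation. They were chosen by their titles: 3 from control cultures and 3 from amyloid-β cultures, each with the replicate numbers 2, 3 and 4. The series asked how amyloid-β affects the RNA-binding protein hnRNP A2 and its RNAs, and its other 9 libraries hold RNA recovered with an hnRNP A2 antibody (6) or with IgG (3, labelled as pools of both treatments). Oligodendrocyte precursors came from the forebrain cortex of newborn Sprague-Dawley rats, and both groups were matured in a defined medium for 3 days. The treatment was the amyloid-β peptide of residues 1 to 42, aggregated at 100 µM and 4 °C for 24 h. The labels used here state neither its concentration on the cells nor the time of exposure. As a model, these are newborn rat cells matured in a dish, not adult oligodendrocytes in tissue.

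Oligodendrocytes are the cells that wrap axons of the central nervous system in myelin. They place part of their myelin protein synthesis far from the cell body, by carrying messenger RNA along their processes, and hnRNP A2 is a protein known for that transport. Amyloid-β is the peptide that accumulates in Alzheimer's disease, and its soluble oligomers are widely used as the toxic form. Input RNA is the total pool against which RNA recovered with a binding protein is usually set.

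The files list genes by rat Ensembl identifiers without names, and none of the 30560 identifiers could be paired with a symbol through the reference table used here. Myelin genes, the hnRNP A2 gene and markers of oligodendrocytes or of other cells were therefore not analysed here, and the labelled cell type was not checked against its markers. For the same reason no gene sequence is shown. Genes appear below by identifier, or by their rank in counts. Reads assigned to genes numbered 14773400 to 25751522 per input library, and a count of 0 allowed a level of up to 0.116 to 0.203 CPM there, for counting error only. That limit was scaled by the gene counts of each library alone. Elsewhere, unless library sizes alone are named, CPM is a gene's count scaled to the same effective total in every library. In bulk RNA, a change in the mix of cells and a change in RNA per cell cannot be told apart.

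Amyloid-β replicate 3 stood apart from the other 5 input libraries. Among 8324 genes with a mean of at least 10 CPM, it was the highest library by 2-fold or more over the next for 630 genes. Control replicate 4 was so for 42 genes and each of the other 4 libraries for 0. It was also the lowest library by that margin for 51 genes, against 0 to 6 in the others. On the first principal component amyloid-β replicate 3 lay at 74.25, control replicate 3 at 17.3 and amyloid-β replicate 4 at 13.59. Control replicate 4 lay at -8.94, and the pair numbered 2 at -49.38 for control and -46.82 for amyloid-β. The counts of genes called, the shares and the fold changes of single genes named by identifier are given below with and without this library or its pair, and the other results by pair where that was computed.

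**Figure D1:**
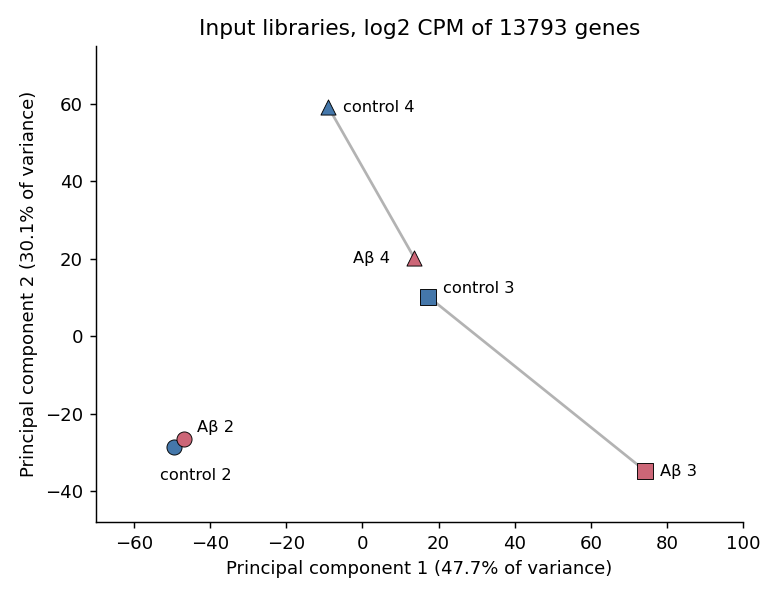
The first 2 principal components of log2 CPM over 13793 genes, 1 point per input library, blue for control and red for amyloid-β, with a grey line joining libraries of the same number. Libraries numbered 2 coincide, those numbered 4 lie apart, and amyloid-β replicate 3 lies far to the right of its control.

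The libraries differed by replicate number more than by treatment. The replicate number took 65.1% of the sum of squares of log2 CPM over the 6 libraries with 2 degrees of freedom, treatment 14.5% with 1, and the remainder 20.3% with 2. Per degree of freedom this was 32.6%, 14.5% and 10.2%. Deviations from the group means correlated across genes at 0.65, 0.48 and 0.45 between the treatments for numbers 2, 3 and 4. Libraries of different numbers gave -0.55 to 0.07. Deviations sum to 0 within each group, so these values are tied to the same-numbered ones and are no separate check. Log2 CPM of control and amyloid-β replicate 2 correlated at 0.988, above the pairs numbered 3 (0.951) and 4 (0.971). Control replicate 3 correlated more closely with amyloid-β replicate 4 (0.979) than with amyloid-β replicate 3. Amyloid-β replicate 4 was likewise closer to control replicate 3 than to control replicate 4, so not all libraries were closest to their own number.

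No gene passed the threshold between amyloid-β and control in input RNA. Of 13793 genes, edgeR called 0 (0%) at an adjusted p of 0.05, and the lowest adjusted p was 0.954. At an unadjusted p under 0.05 there were 166 higher genes (1.20%) and 22 lower genes (0.160%), 188 in all (1.36%). That is less than the share of 0.05 that such a limit passes when no gene differs. The unblocked fit leaves the differences between replicate numbers in its error. With the replicate number as a block edgeR also called 0 genes (0%), with a lowest adjusted p of 0.173, while 1625 genes (11.8%) had an unadjusted p under 0.05, 1113 of them higher (8.07%) and 512 lower (3.71%). Of all genes, 48.6% lay above 0 in the unblocked fit and 49.2% in the blocked one. DESeq2 called 0 without the block, with 335 genes at an unadjusted p under 0.05, and 0 with it, with 1195. limma with voom and library quality weights, which give less weight to libraries that vary more, called 0, with 210.

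The split of the small p-values between higher and lower differed between the fits. With library sizes alone, which moved the median log2 fold change of all genes from -0.01 to 0.15, 554 genes were higher and 2 lower at an unadjusted p under 0.05. With voom and quality weights 86 were higher and 124 lower; voom was not run without the weights. The number of such genes also rested on single libraries. It was 32 without amyloid-β replicate 3, 1243 without amyloid-β replicate 2 and 488 without amyloid-β replicate 4. It was 282, 113 and 54 without control replicates 2, 3 and 4. No gene passed the adjusted threshold in any of these 6 fits.

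Amyloid-β was higher in all 3 same-numbered pairs for 2467 genes (17.9%) and lower in all 3 for 2419 (17.5%). The groups did not overlap, with amyloid-β higher, for 487 genes (3.53%), and with amyloid-β lower for 341 (2.47%). Such counts of direction rest on the scaling, which sets the median over all genes near 0. No gene with 0 counts in all 3 control libraries reached 10 counts in each amyloid-β library, and none did the reverse. With at least 1 count in place of 10, these numbers were 32 and 40 of the 20007 genes counted in any of the 6.

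The size of the difference between the amyloid-β and the control library varied strongly between the 3 pairs. Over 7908 genes with at least 10 CPM on average in both the input and the hnRNP A2 libraries, the SD of log2 amyloid-β over control was 0.18 in pair 2, 0.73 in pair 3 and 0.36 in pair 4. Amyloid-β was 2-fold or more higher for 1 gene in pair 2 (0.0126%), for 1044 in pair 3 (13.2%) and for 33 in pair 4 (0.417%). It was 2-fold or more lower for 3 (0.0379%), 100 (1.26%) and 35 (0.443%) genes. Pair 2 therefore held almost no change of that size and pair 3 most of it. With library sizes alone, pair 4 had 238 such higher genes and 2 lower, and pair 3 had 982 and 146. With one pair of libraries for each number, these counts have no replicate check. Within a pair, an effect of treatment and a departure of a single library cannot be told apart.

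**Figure D2:**
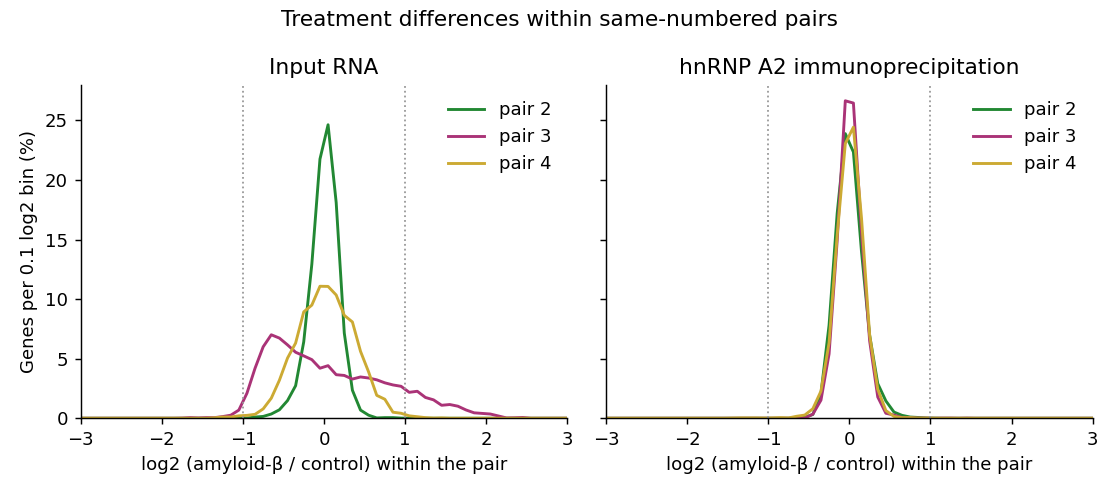
Distribution over 7908 genes of log2 amyloid-β over control within each same-numbered pair, in input RNA on the left and in the hnRNP A2 immunoprecipitation on the right, as the percentage of genes per bin of 0.1, with dotted lines at 2-fold. In input the curve of pair 2 is narrow (SD 0.18) and that of pair 3 is broad and lopsided (SD 0.73), while the 3 hnRNP A2 curves coincide (SD 0.15 to 0.17).

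In pair 3 the distribution was lopsided. Its median was -0.08 and its quartiles were -0.53 and 0.60, so that many genes lay moderately below control and a long tail lay above. The 1044 genes of that tail were chosen by pair 3, and only other libraries can check them. Relative to each gene's mean over the libraries numbered 2 and 4, their median log2 level was 1.36 in amyloid-β replicate 3 and -0.04 in control replicate 3. It was -0.06 and -0.11 in control replicates 2 and 4, and 0.01 and 0.17 in amyloid-β replicates 2 and 4. The control of that pair thus lay with the other libraries. In pair 4 the 1044 genes had a median log2 difference of 0.28, with 847 (81.1%) above 0, against 0.02 and 52.5% over all 7908 genes. In pair 2 it was 0.09, with 763 (73.1%) above 0, against 0.01 and 53.3%. The 100 genes of the opposite kind had a median of -0.52 in pair 4, with 7 (7%) above 0, and -0.07 in pair 2, with 40 (40%) above 0.

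The abundance of these genes was close to that of the rest. The 1044 higher genes had a median of 32.4 CPM in control replicates 2 and 4, and the 100 lower genes 46.0 CPM, against 36.1 CPM over all 7908. Their median log2 level in the hnRNP A2 immunoprecipitation over input in those control replicates was 0.21 and 0.33, against 0.46 over all.

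Across the 7908 genes, the differences of pairs 3 and 4, which share no library, correlated at r = 0.48 (Spearman rho = 0.49). Pairs 2 and 3 correlated at r = 0.23 (rho = 0.29) and pairs 2 and 4 at r = 0.03 (rho = 0.08). These are correlations across genes, which are not independent replicates, and all pairs share the scaling of 1 table. Of genes 2-fold or more higher, 12 were shared by pairs 3 and 4, 1.15% of those of pair 3 and 36.4% of those of pair 4. Of genes 2-fold or more lower, 20 were shared, 20% and 57.1% of the lists.

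**Figure D3:**
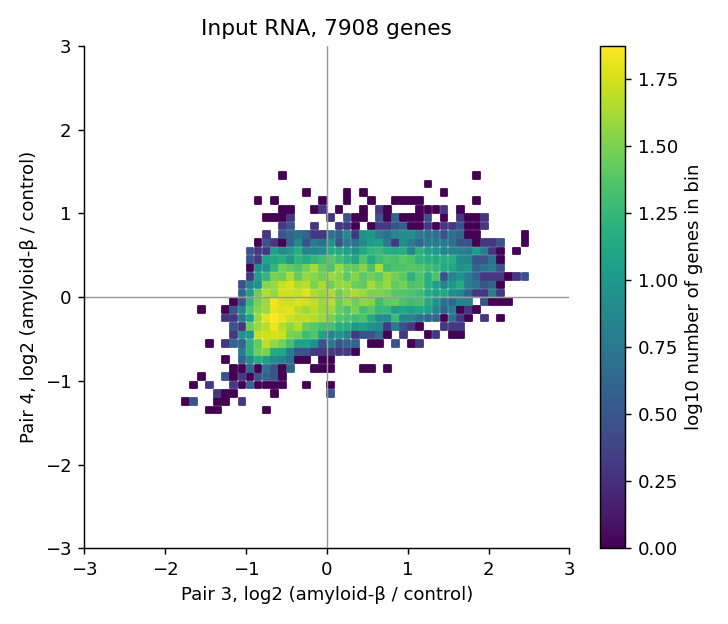
Log2 amyloid-β over control in pair 3 (horizontal) against pair 4 (vertical) in input RNA, each square a bin of 0.1 by 0.1 coloured by the log10 number of genes, 7908 in all. The cloud is wider along pair 3 and tilts upward (Pearson r = 0.48 across genes).

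Pair 2 could be used to read genes that the other pairs had called. In pairs 3 and 4 alone, with the replicate block, edgeR called 134 genes higher (0.970%) and 55 lower (0.398%) of 13821 at an adjusted p under 0.05. This fit has 1 residual degree of freedom per gene and leans on the spread shared over genes. The median log2 fold change in that fit was 1.30 for the higher and -1.37 for the lower genes. In pair 2, 93 of the 134 higher genes (69.4%) also lay above control, against 51.7% of all genes, with a median log2 difference of 0.08. Only 4 of the 55 lower genes (7.27%) lay below control in pair 2, against 48.3% of all genes. Their median there was 0.37, with quartiles of 0.23 and 0.54. The lower genes of pairs 3 and 4 thus went the other way in pair 2, and the higher genes were close to control there. Without pair 3 the blocked fit called 1 gene, lower (0.00723%), and without pair 4 none, where 592 had an unadjusted p under 0.05.

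The hnRNP A2 libraries gave a separate reading of the same genes. The 55 lower genes had a median log2 difference between the treatments of 0.31 in the hnRNP A2 pair numbered 2, 0.14 in number 3 and -0.48 in number 4. In numbers 2 and 4 these signs matched the input pair of the same number, and in number 3, where input was at -1.44, they did not. The 134 higher genes had medians of 0.30, -0.07 and 0.14, against 0.08, 1.85 and 0.65 in input.

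The genes with small p-values in the blocked fit over all 3 pairs had their largest differences in pair 3 and their smallest in pair 2. The 1113 higher genes had a median log2 difference of 0.13 in pair 2, 1.36 in pair 3 and 0.45 in pair 4, and 80.1%, 99.8% and 93.6% lay above 0. The 512 lower genes had medians of -0.15, -0.90 and -0.69, and 75.6%, 99.8% and 99.2% lay below 0, so that pairs 3 and 4 were closer in size there. These genes were chosen on the same values, so the medians describe them only.

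The spread of pair 3 in input had no counterpart in the hnRNP A2 RNA of that number. The SD of log2 amyloid-β over control was 0.17, 0.15 and 0.17 in the hnRNP A2 pairs 2, 3 and 4, each below its input pair (exact permutation test, 2-sided, p = 0.1, and 0.25 by pairs, the smallest that 3 against 3 and 3 pairs allow). Genes 2-fold or more higher numbered 1 (0.0126%), 3 (0.0379%) and 0 (0%) there, and genes 2-fold or more lower 0 (0%), 0 (0%) and 8 (0.101%). The 1044 genes higher in input pair 3 had a median of -0.04 in hnRNP A2 pair 3, and 37.8% lay above 0, against 51.2% of all 7908. Input and hnRNP A2 differences of the same number correlated across genes at r = 0.15 in pair 2, -0.17 in pair 3 and 0.34 in pair 4.

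The test of whether the treatment effect differed between hnRNP A2 RNA and input called no gene. The count from edgeR was 0 of 15303 (0%), and 125 (0.817%) had an unadjusted p under 0.05. The replicate number as a block within each kind of library also left 0 (0%), with 892 (5.83%) at that level and a lowest adjusted p of 0.7. DESeq2, and voom with quality weights, called 0, with 146 and 298 at an unadjusted p under 0.05. None of these fits linked the input and hnRNP A2 libraries of the same number. The edgeR fits also used a common spread per gene for both kinds of RNA, although the pair differences were wider in input. A count of 0 therefore does not show that the effects were alike.

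The genes with the smallest p-values, read from the unblocked fit, had values that did not overlap between the groups, although none passed the adjusted threshold. They were taken as the first 2 in each direction with at least 10 CPM in the higher group and with 1 direction in all pairs or no overlap, so their separation follows from that choice and supports nothing. ENSRNOG00000053405 stood at 6.34, 6.89 and 5.51 CPM in control replicates 2, 3 and 4, against 9, 15 and 10.8 CPM with amyloid-β. All 3 amyloid-β libraries lay above all 3 controls. Its log2 fold change was 0.89 (SE 0.30, 95% interval 0.21 to 1.57; edgeR, adjusted p = 0.954), on 68 to 414 counts per library.

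ENSRNOG00000024428 stood at 10.1, 8.29 and 9.24 CPM in control replicates 2, 3 and 4, against 14.6, 20.3 and 13.2 CPM with amyloid-β. The groups did not overlap, and replicate 3 was again the highest amyloid-β library. Its log2 fold change was 0.80 (SE 0.28, 95% interval 0.18 to 1.43; edgeR, adjusted p = 0.954).

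ENSRNOG00000037137 stood at 35.7, 38.9 and 38.1 CPM in control and at 26.9, 19.7 and 22.8 CPM in amyloid-β. Its control libraries differed little, with a mean of 37.6 CPM and an SD of 1.64 over the 3. In amyloid-β the mean was 23.2 CPM with an SD of 3.62. Its log2 fold change was -0.70 (SE 0.25, 95% interval -1.26 to -0.14; edgeR, adjusted p = 0.954).

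ENSRNOG00000012095 stood at 46.0, 32.7 and 34.0 CPM in control and at 26.0, 16.9 and 25.6 CPM in amyloid-β. Each amyloid-β library lay below each control, and amyloid-β replicate 3 was the lowest. Its log2 fold change was -0.72 (SE 0.29, 95% interval -1.36 to -0.08; edgeR, adjusted p = 0.954). With the replicate block the edgeR adjusted p of these 4 genes was 0.181, 0.201, 0.217 and 0.207. Without amyloid-β replicate 3 their log2 fold changes were 0.66, 0.60, -0.59 and -0.54, each with an edgeR adjusted p of 1.

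The 4 genes were chosen for their input difference, so a smaller one in the hnRNP A2 libraries is no finding, and the values are a description. ENSRNOG00000053405 had 24.5, 20.2 and 23.4 CPM in control and 21.9, 15.8 and 26.1 CPM in amyloid-β replicates 2, 3 and 4 of the hnRNP A2 immunoprecipitation. The groups overlapped, with a log2 fold change of -0.09 (SE 0.21). The log2 fold changes of ENSRNOG00000024428, ENSRNOG00000037137 and ENSRNOG00000012095 were -0.03 (SE 0.26), -0.13 (SE 0.23) and -0.15 (SE 0.16). The differences between the kinds of RNA were -1.01, -0.86, 0.54 and 0.55 on the log2 scale in the order above, and each had an edgeR adjusted p of 1 (0.7 with the block).

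**Figure D4:**
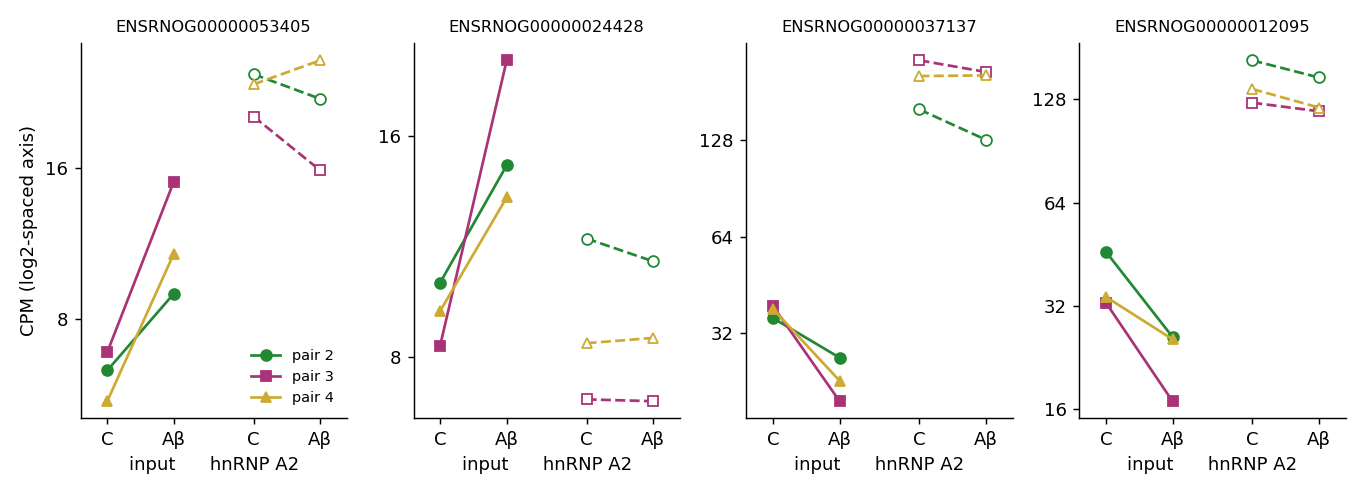
Level in CPM, on a log2-spaced axis, of the 4 genes in control (C) and amyloid-β (Aβ) libraries, with input as filled points and solid lines and the hnRNP A2 immunoprecipitation as open points and dashed lines, 1 colour and shape per replicate number. Input and hnRNP A2 values were scaled separately, so only slopes should be compared between them. In input all 3 lines of a gene run the same way, and the hnRNP A2 lines are flatter, with log2 fold changes of -0.15 to -0.03.

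The 2 genes with the most counts took a smaller share with amyloid-β in each pair, within the spread of the libraries. Counts are not corrected for gene length, and ranks are by mean CPM over the 6 input libraries. The 2 genes with the most counts together took 34.0%, 15.4% and 23.4% of gene counts in control replicates 2, 3 and 4 and 21.2%, 12.2% and 18.8% in the amyloid-β replicates. The share was lower with amyloid-β in each pair, by 6.89 ± 5.19 percentage points (SD, n = 3), but the groups overlapped (exact permutation test, 2-sided, p = 0.4 unpaired and 0.25 by pairs; adjusted over 8 library measures, 1 and 0.667). The pair of genes varied together, and the count of the first over that of the second lay between 0.894 and 1.23 in the 6 libraries. The difference was -2.02 percentage points without control replicate 2, -11.3 without control replicate 3 and -4.28 without amyloid-β replicate 3.

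The third gene in rank did not go one way. It took 2.96%, 4.05% and 8.45% of gene counts in control and 4.52%, 1.70% and 4.77% in amyloid-β, higher in pair 2 and lower in pairs 3 and 4. The fourth took 1.62%, 1.08% and 1.18% in control and 1.20%, 0.649% and 1.05% in amyloid-β, lower in each pair. The eighth was the single gene of the 10 whose CPM was higher with amyloid-β in each pair, with shares of 0.358%, 0.511% and 0.226% in control and 0.458%, 0.966% and 0.417% in amyloid-β. The ninth was higher in share in each pair, but not in CPM. None of the 10 passed, and with the replicate block the lowest edgeR adjusted p among them was 0.278, for the third gene, whose log2 fold change was -0.68 (SE 0.26) there.

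The summed share of the 10 genes was 34.7% ± 8.75 (SD, n = 3) in control and 26.0% ± 6.35 (SD, n = 3) in amyloid-β. This share was also lower in each of the 3 pairs, by 8.7 ± 2.47 percentage points (SD, n = 3; exact permutation test, 2-sided, p = 0.3 unpaired and 0.25 by pairs, the smallest possible being 0.1 and 0.25; adjusted, 1 and 0.667). The sum includes the first 2 genes, whose difference was -6.89 points, and the third, with -1.49, so it mostly repeats theirs. The difference of the 10 was -5.38 without control replicate 2, -13.7 without control replicate 3 and -5.06 without amyloid-β replicate 3. Alignments to several places, which are not part of gene counts, made up 46.8%, 55.9% and 67.2% of aligned records in control and 51.3%, 53.9% and 59.3% in amyloid-β. They did not move one way over the pairs, and their part in the gene shares was not tested.

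**Figure D5:**
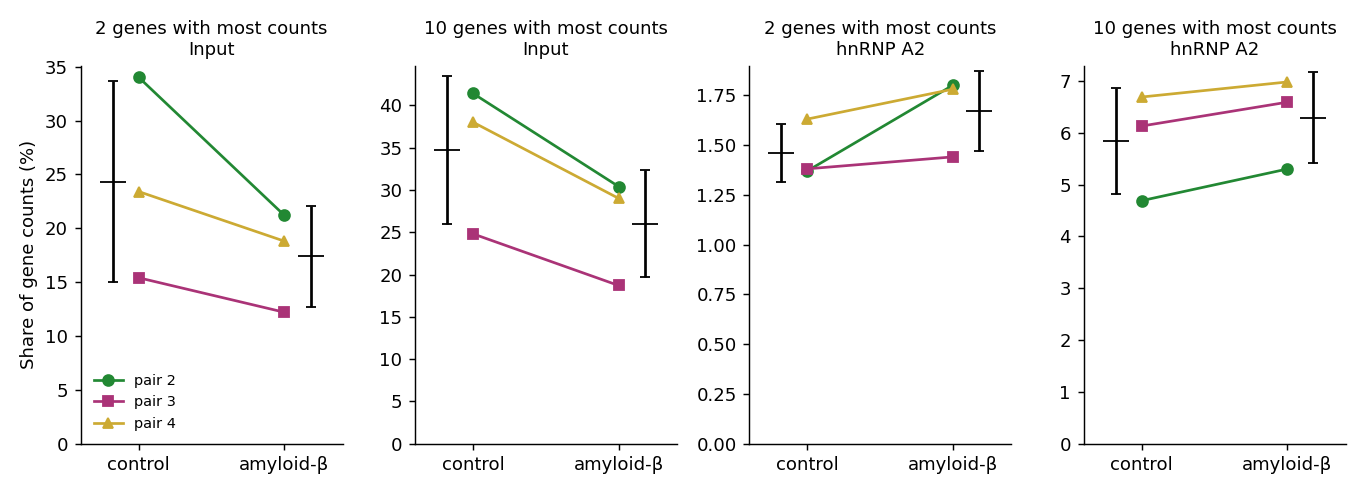
Share of gene counts in percent taken by the 2 and by the 10 genes with the most input counts, in control and amyloid-β libraries joined by replicate number, for input and for the hnRNP A2 immunoprecipitation, with bars for the mean and SD of 3 libraries and a separate axis from 0 in each panel. All input lines fall and all hnRNP A2 lines rise, and the groups overlap in all 4 panels.

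The median SE of a log2 fold change in the unblocked fit was 0.72 for genes under 1 CPM, 0.44 for 1 to 10 CPM, 0.30 for 10 to 100 CPM, 0.32 for 100 to 1000 CPM and 0.39 for 1000 CPM and over. Among 6801 genes of 10 to 100 CPM the median log2 fold change was 0.01, and the 95% interval lay within 2-fold either way for 3968 (58.3%), or 5895 (86.7%) with the block. Among 4358 genes of 1 to 10 CPM these were -0.02, 968 (22.2%) and 2172 (49.8%), among 1464 genes of 100 to 1000 CPM -0.08, 706 (48.2%) and 1239 (84.6%), and among 1111 genes under 1 CPM -0.08, 0 (0%) and 5 (0.45%). The 59 genes of 1000 CPM and over had a median of -0.31, with 16 (27.1%) above 0, against 48.6% of all genes, and their interval lay within 2-fold for 11 (18.6%), or 43 (72.9%) with the block. Over all 13793 genes the interval lay within 2-fold for 5653 (41.0%), or 9354 (67.8%) with the block. A 2-fold change was therefore not excluded by the unblocked fit for most genes.

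Genes recovered with hnRNP A2 had median log2 differences of -0.13 to 0.08 in the 3 input pairs. They were sorted by the control hnRNP A2 immunoprecipitation over IgG, which uses no input library but sets control RNA against IgG pools labelled as holding both treatments: 1853 of 15304 were 2-fold or more higher (12.1%) and 1193 lower (7.80%). With 0 genes called in input over all 13793, no call among them was possible. Of the 1490 higher genes tested in input, 0.872% had an unadjusted p under 0.05 in the edgeR fit, against 1.36% of all genes, and 8.39% with the block, against 11.8%. For the 831 lower genes these were 1.81% and 17%. The median level was 6.3 CPM for the higher and 3.54 CPM for the lower genes, against 15.6 CPM over all genes. Among all genes of 1 to 10 CPM the shares were 1.08%, and 8.33% with the block. The part of abundance in these shares was not tested. The median log2 fold change of the higher genes was -0.06, against -0.01 over all genes, and it was -0.13, -0.05 and 0.08 in pairs 2, 3 and 4. The lower genes had a median of -0.15, with 0.08, -0.12 and -0.27 in the 3 pairs. The IgG libraries held 81463 (replicate 2) to 4096829 gene counts, and the lists rested on them. Without IgG replicate 2 the lists held 2034 and 1374 genes, with input medians of -0.04 and -0.19. Without IgG replicate 3 they held 3741 and 1823 genes, with input medians of -0.09 and 0.00, and without IgG replicate 4 the input medians were 0.01 and -0.26.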

How the data were processed

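The members and measures were chosen with earlier results of these data known. The deposited files, 1 per library, hold read counts per gene without normalization. The tools listed in the submitters' processing notes, without a role, are DESeq2, HTSeq, R 4.2.2 and STAR 2.7.1. Build, annotation and strand setting were not given in the sources used here. Genes that overlap, lie antisense or have near-identical copies are therefore uncertain. The 5 rows that name no gene held 76.0% to 85.5% of input records and were left out. Of the 30560 identifiers, 0 matched a symbol, so the 32 gene lists of the plan were not analysed here.

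The comparison used edgeR 4.0.16 in R 4.3.3 (TMM, default filter, quasi-likelihood F test, Benjamini-Hochberg over all genes tested, threshold 0.05), on the 6 input libraries without a block, and was tested on simulated counts. The simulated counts held no library that stood apart from the rest, so they do not show how the test behaves with such a library. The changes placed in them were all larger than 2-fold and lay in genes of at least 10 CPM. Smaller changes and lower levels were not covered. DESeq2 1.42.0 and limma 3.58.1 (voom with library quality weights) were alternatives. The replicate numbers were read as pairing the libraries because every same-numbered correlation of deviations was over 0.1 (lowest 0.45). Pair differences are log2 of CPM plus 0.5, with TMM scaling. Named genes are the first 2 per direction by p in the unblocked fit, with at least 10 CPM in the higher group and 1 direction in all pairs or no overlap. The plan named 8 per direction from each fit, all with symbols, and allowed 2 identifiers without them. The design text calls the replicates biological. The input libraries of a group all differed by more than sampling noise.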

Additional observations from a re-analysis of the deposited data

Results flagged for a closer look

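The shares of the first and the second gene by counts, and the summed shares of the first 2 and the first 10, moved in opposite directions in input and in hnRNP A2 RNA, in every pair of each. Single genes of the 10 did not all do so: the third had mean differences of -1.49 percentage points in input and -0.00855 in hnRNP A2 RNA, the eighth and ninth were higher in share in every input pair, and the fourth was lower with amyloid-β in hnRNP A2 pair 2 (1.5% and 1.44%). The difference between the 2 kinds of RNA was not tested for these shares, which overlap one another as measures. The gene with the most counts took a smaller share of input counts with amyloid-β in every pair, on average by -3.23 percentage points (SD 1.88, n = 3), and a larger share of hnRNP A2 counts in every pair, by 0.0932 (SD 0.0725, n = 3). For the second gene the mean differences were -3.66 in input and 0.120 in hnRNP A2 RNA. The 2 genes together gave -6.89 and 0.213, and the 10 genes together -8.7 and 0.456. As a share of all records of a file, the 10 genes gave -1.5 and 0.141 percentage points. Within each kind of RNA the summed shares gave p = 0.25 in an exact permutation test by pairs. That is the smallest that 3 pairs allow, so no share could have passed. The shares of the first and of the second gene alone were not put to this test.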

How the results depend on the processing

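The count of 0 genes in input held in all 20 alternatives but 2. With the replicate block and 1 number left out of both groups, 189 genes were called without number 2, 1 without number 3 and 0 without number 4 (range 0 to 189). Without 1 library the range was 0 to 0. The interaction stayed at 0 in all 16 alternatives. The number of genes with an interval within 2-fold was 9354 with the replicate block and 2516 to 8111 without 1 library, with 2516 without amyloid-β replicate 4, 3241 without amyloid-β replicate 2, 3306 and 3319 without control replicates 2 and 3, and 8111 without amyloid-β replicate 3. The 4 named genes kept their direction in all 20 alternatives, and none was called in any (lowest adjusted p = 0.106). The share differences kept their sign, from -11.3 to -2.02 percentage points for the 2 genes and -13.7 to -5.06 for the 10, without 1 library. Paired by number they were the same, as the replicate block leaves a mean difference unchanged. The counts of genes 2-fold apart within pairs were also run with other scalings and level limits, chosen after seeing the data. In pair 3 they were 1504 higher and 298 lower of 12497 genes at 1 CPM or more, and 137 and 13 of 1204 at 100 CPM or more. Pair 4 gave 211 and 208, and 0 and 8, and pair 2 gave 17 and 31, and 0 and 1. The number of genes also changed with the limit, and at 10 CPM pair 3 had 1044 and 100 of 7908. The higher count of pair 3 thus moved roughly in step with the number of genes. From 10 CPM to 1 CPM the lower count of pair 3, and both counts of pairs 2 and 4, rose more steeply than that number. Low levels limit most genes under 10 CPM.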
